A study of Mus musculus with 2 samples.

Results

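The 63 genes described here are all protein-coding genes of the mouse annotation (GENCODE release 21, GRCm38, also called mm10) whose symbol is Sox followed by digits, or Fox followed by a letter and digits. They comprise 19 Sox and 44 Fox genes of 21938 protein-coding genes. The rule that picks them uses the symbol alone and no measured value. Chromatin was measured with DNase-seq, in which DNase I cuts the accessible DNA of nuclei and the cut ends are sequenced. The tissue was cerebellum of male mice of strain B6CASTF1/J (first-generation offspring of a B6 by CAST cross) at an age of 8 to 10 months. Its source label names no treatment. There is 1 group of 2 libraries, biological replicates 1 and 2 per the labels, and a separate pool of 2 cerebellum biosamples went into each. Whether animals were common to the pools is not stated, so some of the difference between libraries may be technical. With a single group and 2 libraries no test between conditions was possible, and all values below are descriptions.

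SOX proteins carry an HMG box, a domain that binds the minor groove of DNA and bends it, and FOX proteins carry a forkhead, or winged helix, domain. Both families are divided into lettered subgroups by the similarity of that domain. In neural tissue, SOXB1 proteins are known for maintaining progenitors, SOXC for early neuronal differentiation, and SOXE for glia. FOXO proteins are known as the nuclear targets of insulin and growth factor signalling, and FOXP proteins as factors of neuronal development, with FOXP2 a known marker of Purkinje cells.

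The deposited files give 2 peak lists per library and a list of footprints, which are short stretches protected from cutting. There were 61776 (replicate 1) and 71141 (replicate 2) peaks in the stricter list, and 99710 and 114935 in the longer one. Footprints numbered 314116 and 320832. The authors' peak signal took whole multiples of a fixed step in each library, and the median stricter peak had 196 and 152 steps. Of granule cell marker genes, 10 of 10 had a start peak in both libraries, as did 5 of 8 Purkinje cell, 5 of 8 Bergmann glia and astrocyte, and 2 of 8 oligodendrocyte markers. Of 8 microglia and 8 vascular markers none did, of choroid plexus and ependyma, forebrain neuron and other organ markers 1 of 8 each. In tissue of several cell types, a locus open in few cells and one weakly open in many cells cannot be told apart.

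Several stretches carry the results below and are printed from the GRCm38 reference, which is the B6 sequence, 5′ to 3′ on the strand of the gene. Capitals mark bases that lay in footprints of both libraries. The first 3 are the peaks at the starts of the genes with the highest start signals in their families: the Foxn3 peak up to the nearest annotated exon (chr12:99392041-99392165, minus strand), the middle of the Foxo3 peak (chr10:42277631-42277930, minus strand) and the Sox12 peak (chr2:152398101-152398320, minus strand).
Foxn3 start peak: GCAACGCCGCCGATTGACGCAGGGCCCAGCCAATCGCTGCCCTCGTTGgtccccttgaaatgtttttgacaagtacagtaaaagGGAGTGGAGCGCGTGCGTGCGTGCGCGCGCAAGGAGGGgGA
Foxo3 start peak: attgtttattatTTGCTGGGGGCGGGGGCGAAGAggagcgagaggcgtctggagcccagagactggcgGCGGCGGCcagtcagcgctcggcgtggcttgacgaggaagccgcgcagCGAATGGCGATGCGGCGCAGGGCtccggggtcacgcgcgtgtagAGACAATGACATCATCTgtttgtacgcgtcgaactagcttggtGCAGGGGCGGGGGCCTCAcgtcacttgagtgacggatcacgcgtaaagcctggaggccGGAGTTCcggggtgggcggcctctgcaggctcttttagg
Sox12 start peak: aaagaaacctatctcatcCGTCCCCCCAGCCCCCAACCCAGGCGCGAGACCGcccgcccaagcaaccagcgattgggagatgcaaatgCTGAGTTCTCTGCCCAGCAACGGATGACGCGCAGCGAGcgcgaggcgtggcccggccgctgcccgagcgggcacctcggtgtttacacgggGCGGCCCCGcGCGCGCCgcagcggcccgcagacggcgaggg
The next 3 are distal peaks with a high signal near a member: upstream of Foxk1 (chr5:142367301-142367580, plus strand), upstream of Foxc2 (chr8:121113401-121113620, plus strand) and upstream of Sox4 (chr13:28957881-28958080, minus strand).
Foxk1 distal peak: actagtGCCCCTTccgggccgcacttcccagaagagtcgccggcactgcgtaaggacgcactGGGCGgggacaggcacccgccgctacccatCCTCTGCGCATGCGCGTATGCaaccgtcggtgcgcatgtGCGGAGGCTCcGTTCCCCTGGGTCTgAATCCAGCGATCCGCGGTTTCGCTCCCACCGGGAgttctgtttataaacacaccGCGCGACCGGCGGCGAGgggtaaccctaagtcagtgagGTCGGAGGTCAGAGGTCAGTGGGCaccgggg
Foxc2 distal peak: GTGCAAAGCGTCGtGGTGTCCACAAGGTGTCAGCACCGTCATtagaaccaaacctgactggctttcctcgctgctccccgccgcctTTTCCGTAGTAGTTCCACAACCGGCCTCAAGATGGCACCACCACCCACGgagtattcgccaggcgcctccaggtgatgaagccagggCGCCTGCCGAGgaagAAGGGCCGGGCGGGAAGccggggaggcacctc
Sox4 distal peak: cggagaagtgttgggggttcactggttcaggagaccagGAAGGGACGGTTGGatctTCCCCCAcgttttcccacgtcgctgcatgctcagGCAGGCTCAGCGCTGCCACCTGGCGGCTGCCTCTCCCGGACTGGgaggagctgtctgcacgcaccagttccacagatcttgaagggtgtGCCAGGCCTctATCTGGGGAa

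A gene was counted as having a start peak where a peak of the stricter list overlapped the window of 1 kb on either side of any of its annotated transcript starts. The signal of the strongest of these peaks is called its start signal. Of the 63 Sox and Fox genes, 26 had a start peak in replicate 1 and 27 in replicate 2, where 58.4% and 57.2% of all protein-coding genes did. In both libraries 24 had one, or 38.1%, against 55.9% of coding genes. In 1 library alone 5 had one, against 3.82% of coding genes, and 34 had none in either, against 40.3%. The share of Sox and Fox genes with a start peak was thus below that of coding genes in each library. By family, 7 of 19 Sox genes and 17 of 44 Fox genes had a start peak in both libraries.

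**Figure D1:**
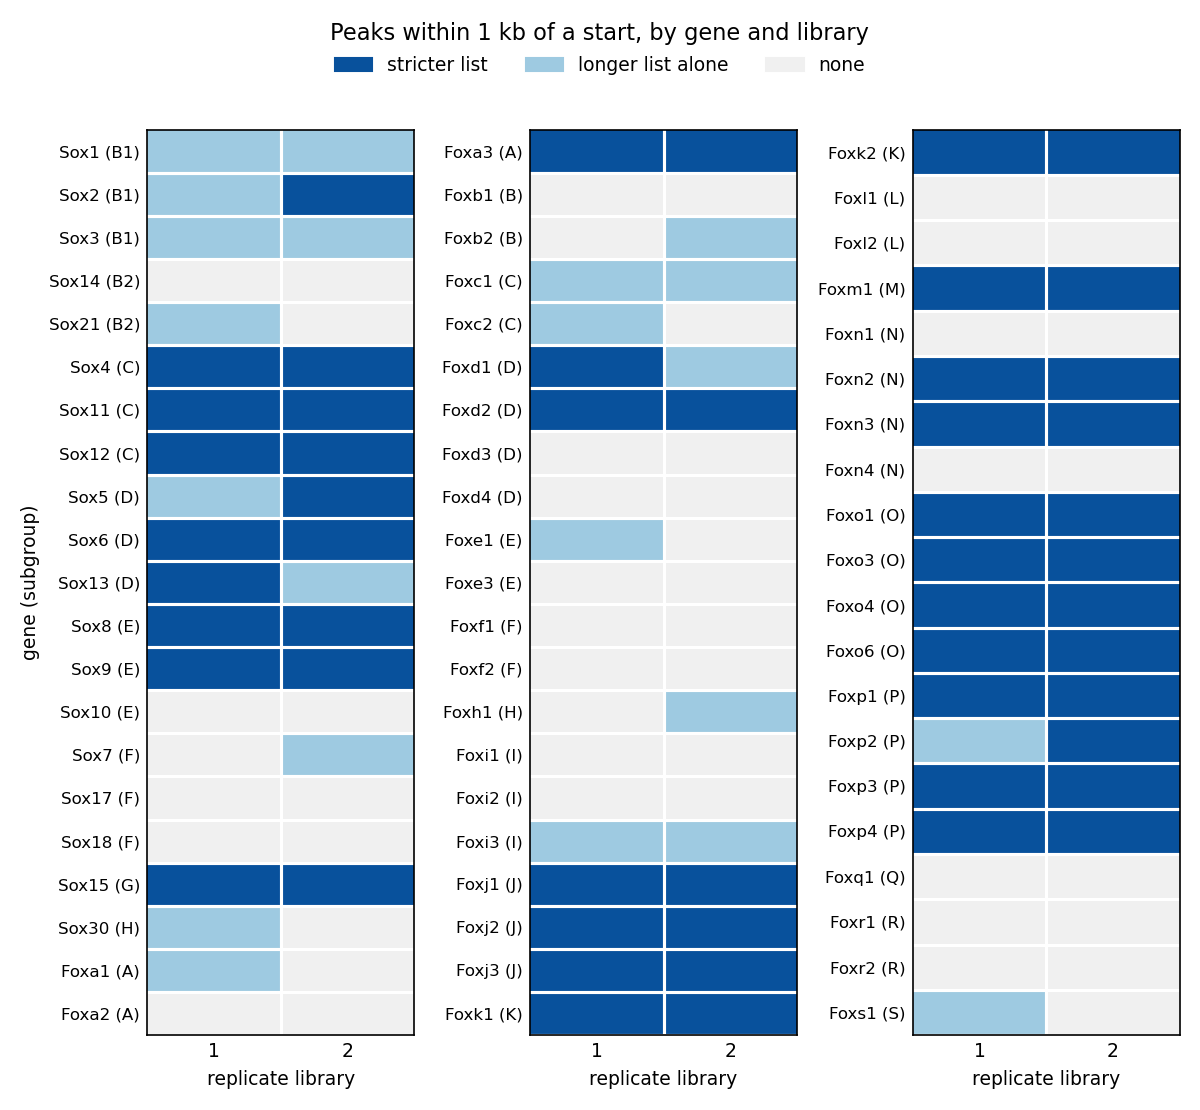
Presence of a peak within 1 kb of an annotated start, for 62 of the 63 genes (rows, with the subgroup in parentheses) in each of the 2 libraries (columns). Dark cells are peaks of the stricter list, light cells peaks of the longer list alone and grey cells neither; all genes of Fox J, K and O are dark in both libraries.

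The longer list gave 39 members in replicate 1 and 36 in replicate 2, against 63.4% and 62.2% of coding genes. In both libraries it gave 33 members, against 60.5% of coding genes, and it left 21 with no peak in either, against 34.9%. Of the Sox genes, 14 and 13 of 19 had a peak of the longer list in the libraries, and 12 (63.2%) in both. Their share was thus near that of all coding genes and no longer below it. The Fox genes stayed below it, with 21 of 44 (47.7%) in both. These shares take no account of CpG content, and a comparison within CpG classes is given below. In Sox B1 all 3 genes had a peak of the longer list in both libraries, while Sox10, a factor of oligodendrocytes, had no start peak in either list.

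Among the Sox genes the start peaks were strongest in group C, whose genes are known for early neuronal differentiation. Sox12 had a signal of 6.003 in replicate 1 and 3.45 in replicate 2, with a mean of 4.73 ± 1.80 (SD, n = 2). Over coding genes with a start peak in both libraries, replicate 1 was higher, with a median log2 ratio to replicate 2 of 0.55. Every SD of a start signal given here includes that offset between the libraries. Sox4 had 4.24 and 2.88, and Sox11 0.992 and 0.493. All 3 genes of the group had a peak in both libraries, and Sox11 lay well below the other two. Against all coding genes with a start peak, Sox12 stood at percentile 61.0 and 50.9 and Sox11 at percentile 8.57 and 4.66.

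The glial group E was split. Sox8 had a signal of 1.88 and 1.20, and its peak also lay at the start of an antisense transcript. Sox9, a marker of astrocytes and Bergmann glia, had 0.650 and 0.746. Sox10 had none in either library. Of the 3 genes the highest signal was thus that of Sox8.

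In group D, whose proteins lack a transactivation domain, Sox6 had 0.664 and 0.803. Sox13 had a peak in replicate 1 alone, of 0.785, and Sox5 in replicate 2 alone, of 0.348. Both single peaks were weak, at 110 and 55 steps, and in the longer list all 3 genes had a peak in both libraries. Peaks reached 5 and 2 of the 13 annotated starts of Sox6.

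In group B1, the factors of neural progenitors, Sox2 had a stricter peak in replicate 2 alone, of 0.569, at 90 steps. Sox1 and Sox3 had peaks of the longer list alone, of 0.557 and 0.348 for Sox1, and of 0.364 and 0.209 for Sox3. The 3 starts were thus above the looser threshold and, except for Sox2 in replicate 2, below the stricter one. In group B2, Sox14 had none and Sox21 a peak of the longer list in replicate 1 alone.

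In group F, the factors of endothelial cells, Sox17 and Sox18 had no start peak in either list, and Sox7 had one of 0.177 in the longer list of replicate 2. Sox15, the only gene of group G, had 2.27 and 1.16, in a peak over its exon. Sox30, the only gene of group H, a testis factor, had a peak of the longer list in replicate 1 alone. The 8 vascular markers, measured in the same way, had no start peak in both libraries either.

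**Figure D2:**
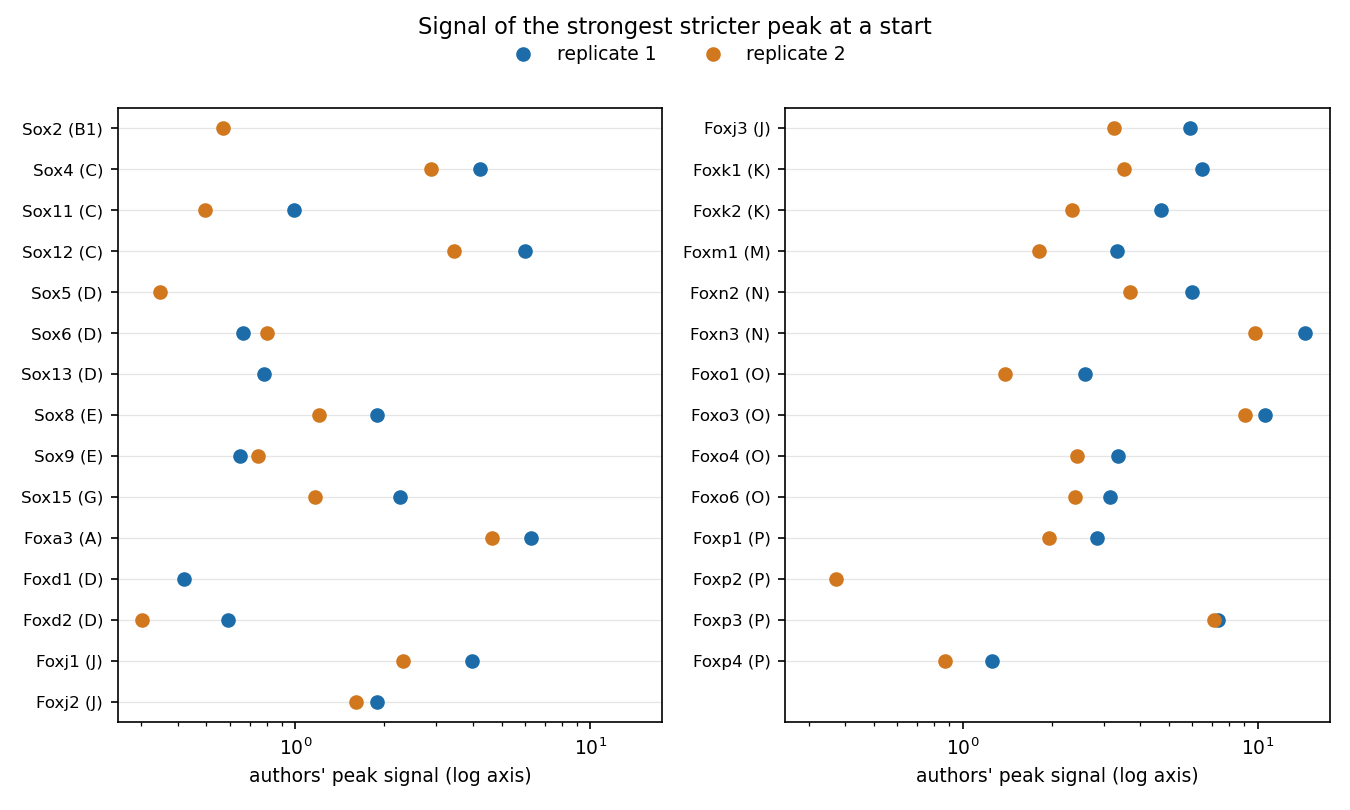
The authors' signal of the strongest stricter peak within 1 kb of a start (horizontal log axis), for the 29 genes with such a peak in either library, with 1 point per library and the subgroup in parentheses. The highest are Foxn3 and Foxo3, and replicate 1 is above replicate 2 in 22 of the 24 genes with both points.

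Among the Fox genes the start peaks fell mostly into a few letters. Fox J, K, M, N, O and P together held 15 of the 17 Fox genes with a start peak in both libraries, out of 18 genes. The other letters held 2 of 26, Foxa3 and Foxd2. This division was made after the values were seen and is a description only.

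The highest start signal of all members was that of Foxn3, a transcriptional repressor, with 14.44 and 9.75, a mean of 12.1 ± 3.32 (SD, n = 2). The gene spans chr12:99190078-99563582 on the minus strand. Its start signal stood at percentile 97.4 and 93.9 of coding genes with a start peak. The peak lay in an intron, 921 bp downstream of the nearest Foxn3 start in both libraries, and in RefSeq a predicted coding gene, Gm51999, starts inside it on the other strand. Peaks reached 6 and 7 of the 14 annotated starts. Foxn2 had 5.97 and 3.67, with a peak at all 4 of its starts. Foxn1, the thymus factor, and Foxn4 had none.

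In Fox O, the group known as targets of insulin signalling, all 4 genes had a peak in both libraries. Foxo3 was the strongest, with 10.53 and 9.03, a mean of 9.78 ± 1.06 (SD, n = 2). The peak is centred 1026 bp upstream of the nearest Foxo3 start, overlaps the window of 1 kb, and also counts among the distal peaks defined below. Foxo4 had 3.35 and 2.44, Foxo6 3.15 and 2.40, and Foxo1 2.59 and 1.39. Foxo3 was above the other members of the group in both libraries, and Foxo1 was the lowest in both. Foxo4 lies on chromosome X, where 44.0% and 43.3% of coding genes had a start peak, with a median signal of 2.46 and 1.87 against 4.94 and 3.46 on the autosomes.

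Genes known to act on FoxO proteins, and known FoxO targets, were counted in the same way, beside the 55.9% of coding genes with a start peak in both libraries. These lists were not split by CpG content, and 89.7% of CpG-rich coding genes, as defined below, had one. Of 14 genes of upstream signalling, 14 had a start peak in both libraries, among them Ywhaz with 11.99 and 10.15 and Irs2 with 10.29 and 7.17. Of 10 targets, 6 had one in both libraries, a share near that of coding genes, led by Sod2 with 9.96 and 7.20, Ccng2 with 7.19 and 8.41, and Gadd45a with 7.69 and 7.39. Among the targets with none were the liver enzyme genes G6pc and Pck1.

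In Fox P, Foxp3, the factor of regulatory T cells, had 7.30 and 7.12, but its peak lay 68 and 138 bp from a start of Ppp1r3f and 707 and 777 bp from one of its own. Foxp1 had 2.86 and 1.95, with a peak at 4 of its 22 starts in each library. Foxp4 had 1.26 and 0.872, and Foxp2 had a stricter peak in replicate 2 alone, of 0.373. The Foxp2 peak held 59 steps, and the longer list had one in both libraries. The Purkinje cell marker list, measured in the same way, had start peaks in both libraries at 5 of its 8 genes, led by Itpr1.

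Fox J and Fox K were open throughout. Foxj3 had 5.87 and 3.26, in a peak that lay 68 and 88 bp from a start of Frg2f1. Foxj1, the master factor of motile cilia, had 3.98 and 2.31, and Foxj2 1.88 and 1.61. Foxk1 had 6.45 and 3.51 and Foxk2 4.70 and 2.35. The choroid plexus and ependyma list had a start peak in both libraries at 1 of 8 genes, with a summed start signal of 1.03 and 1.69, and Folr1, Kcnj13, Ccdc153 and Tmem212 were among its 6 genes with none. The part of such cells in the Foxj1 peak was not tested.

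Foxm1, a factor of dividing cells, had 3.33 and 1.81 in a peak whose middle lay 19 and 10 bp from a start of Rhno1. Foxa3, of the liver-enriched A group, had 6.30 and 4.65, with the peak 56 and 76 bp from a start of Sympk and 783 and 763 bp from its own. By GENCODE starts, Foxa3, Foxp3, Foxm1 and Foxj3 thus shared their strongest start peak with a coding gene whose start was nearer. Without them 20 members are left. Foxn3, with the RefSeq gene Gm51999 starting inside its peak, is not counted among them. RefSeq starts were looked up for the printed peaks alone. Foxd2 had 0.592 and 0.303 in a peak whose middle lay 128 and 133 bp upstream of its own start, with the start of the noncoding transcript Foxd2os 256 and 251 bp away. Foxd1 had a peak of 0.421 in replicate 1 alone.

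Among the Fox genes with no stricter start peak in either library were Foxa1 and Foxa2, Foxb1 and Foxb2, Foxc1 and Foxc2, Foxd3 and Foxd4, Foxe1 and Foxe3, Foxf1 and Foxf2, Foxh1, Foxi1, Foxi2 and Foxi3, Foxl1 and Foxl2, Foxq1, Foxr1 and Foxr2, and Foxs1. Most of these are factors known from the development of other organs. Of them, Foxc1 and Foxi3 had a peak of the longer list in both libraries, with 0.671 and 0.386 for Foxc1 and 0.364 and 0.196 for Foxi3. Peaks of the longer list in 1 library alone were found for Foxa1, Foxb2, Foxc2, Foxe1, Foxh1 and Foxs1.

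The start signals of the members lay below those of coding genes. The median over members with a start peak was 3.24 in replicate 1 and 1.95 in replicate 2, against 4.83 and 3.38 over coding genes with one. Of the 24 members with a peak in both libraries, 7 were above that median in both and 16 below it in both. Among the 7 were Foxa3 and Foxp3, whose strongest peak lay nearer to a start of another coding gene. Foxn3, whose peak holds the RefSeq start of Gm51999, was among them too. Foxm1, which also shared its peak, was among the 16. The strongest peaks of the libraries overlapped for all 24. The median log2 ratio of replicate 1 to replicate 2 was 0.61 over these members and 0.55 over coding genes, and Sox6 and Sox9 alone were higher in replicate 2. Other genes with an HMG box, the domain of the SOX proteins, gave a start peak in both libraries for 9 of 14, near the 55.9% of coding genes. Among these were Hbp1 with 16.7 and 16.1 and Cic with 15.2 and 16.8, while Lef1 and Sry were among the closed.

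Starts rich in CpG, the dinucleotide of CpG islands, are open in most tissues. A start was called CpG-rich where the ratio of observed to expected CpG within 1 kb of the 5′-most start was 0.6 or more. This held for 48 of the 63 members, or 76.2%, and for 33.9% of coding genes. Of the CpG-rich members 20 had a start peak in both libraries, or 41.7%, against 89.7% of CpG-rich coding genes. Of the 15 CpG-poor members 4 did, against 38.5% of CpG-poor coding genes. The ratio is read at the 5′-most start, but the peak may lie at any start of the gene. With peaks at the 5′-most start alone, 22 of the 63 members had one in both libraries. Of the 48 CpG-rich members 20 did so, against 88.4% of CpG-rich coding genes. The CpG-rich members with no stricter start peak in either library numbered 23.

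**Figure D3:**
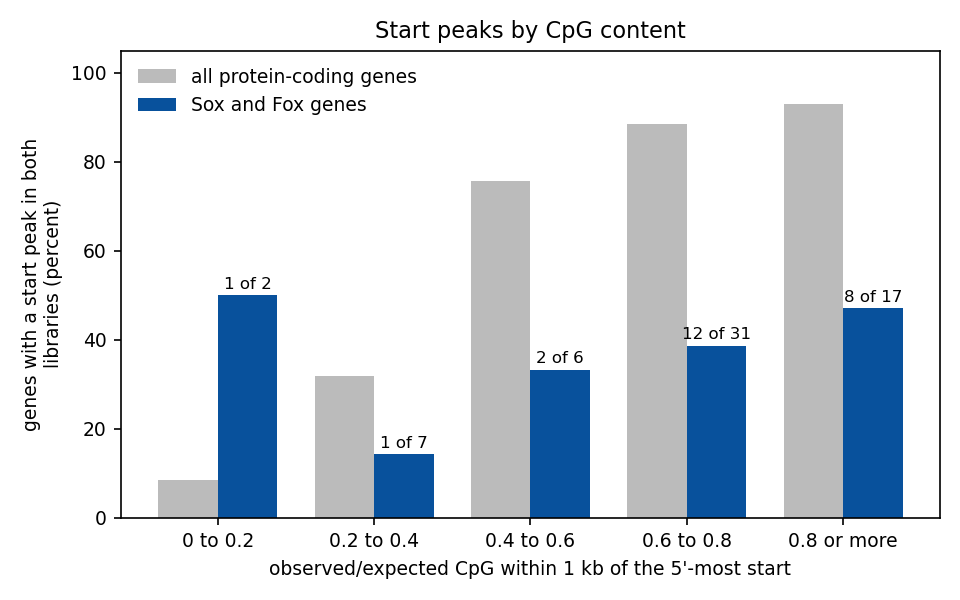
Percent of genes with a stricter start peak in both libraries (vertical axis, from 0) by observed to expected CpG ratio, for all protein-coding genes (grey bars) and for the Sox and Fox genes (blue bars, with the count above each). In the 2 bins of 0.6 or more the members stand at 12 of 31 and 8 of 17, below the coding genes at 88.6% and 93.0%.

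The gap held in both of the CpG-rich bins, with 12 of 31 members against 88.6% and 8 of 17 against 93.0%. With the threshold at 0.75, 14 of 31 CpG-rich members were open in both libraries against 92.8% of coding genes, and with the longer list 29 of 48 against 93.1%. The number of annotated starts also moved with the count. Of the 34 members with a single start 9 were open in both libraries, against 26.1% of coding genes with 1 start, and of the 29 with several starts 15 were, against 64.4%.

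The deposited false discovery rate (FDR) of the local cut rate underlies both peak lists and is no separate measure from them. Of the 34 members with no stricter start peak, 21 had no base under 0.05 in either library within 1 kb of a start, or 61.8%, against 83.5% of the closed coding genes. They are the 21 members with no start peak in the longer list. Among CpG-rich closed genes the shares were alike, with a base under 0.05 in 11 of 23 members and in 47.8% of coding genes. Among the CpG-poor closed genes it was 2 of 11 members and 14.4% of coding genes.

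Distal peaks were stricter peaks whose middle lay more than 1 kb from every transcript start of any gene. Within 50 kb of a start, 45 members had at least 1 such peak in replicate 1 and 50 in replicate 2, where 67.5% and 72.6% of coding genes did. The median was 2 and 2 per member and 1 and 2 per coding gene, and the mean 2.67 and 3.13 against 2.99 and 3.22. No distal peak was found in either library for 11 members, against 24.7% of coding genes. Among them were Foxa1, Foxb1, Foxb2, Foxd1, Foxd3, Foxp2, Foxr2, Sox3, Sox17 and Sox21. A count of 8 or more was reached by 5 members in replicate 1 and 8 in replicate 2, where 10.0% and 10.8% of coding genes did so.

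**Figure D4:**
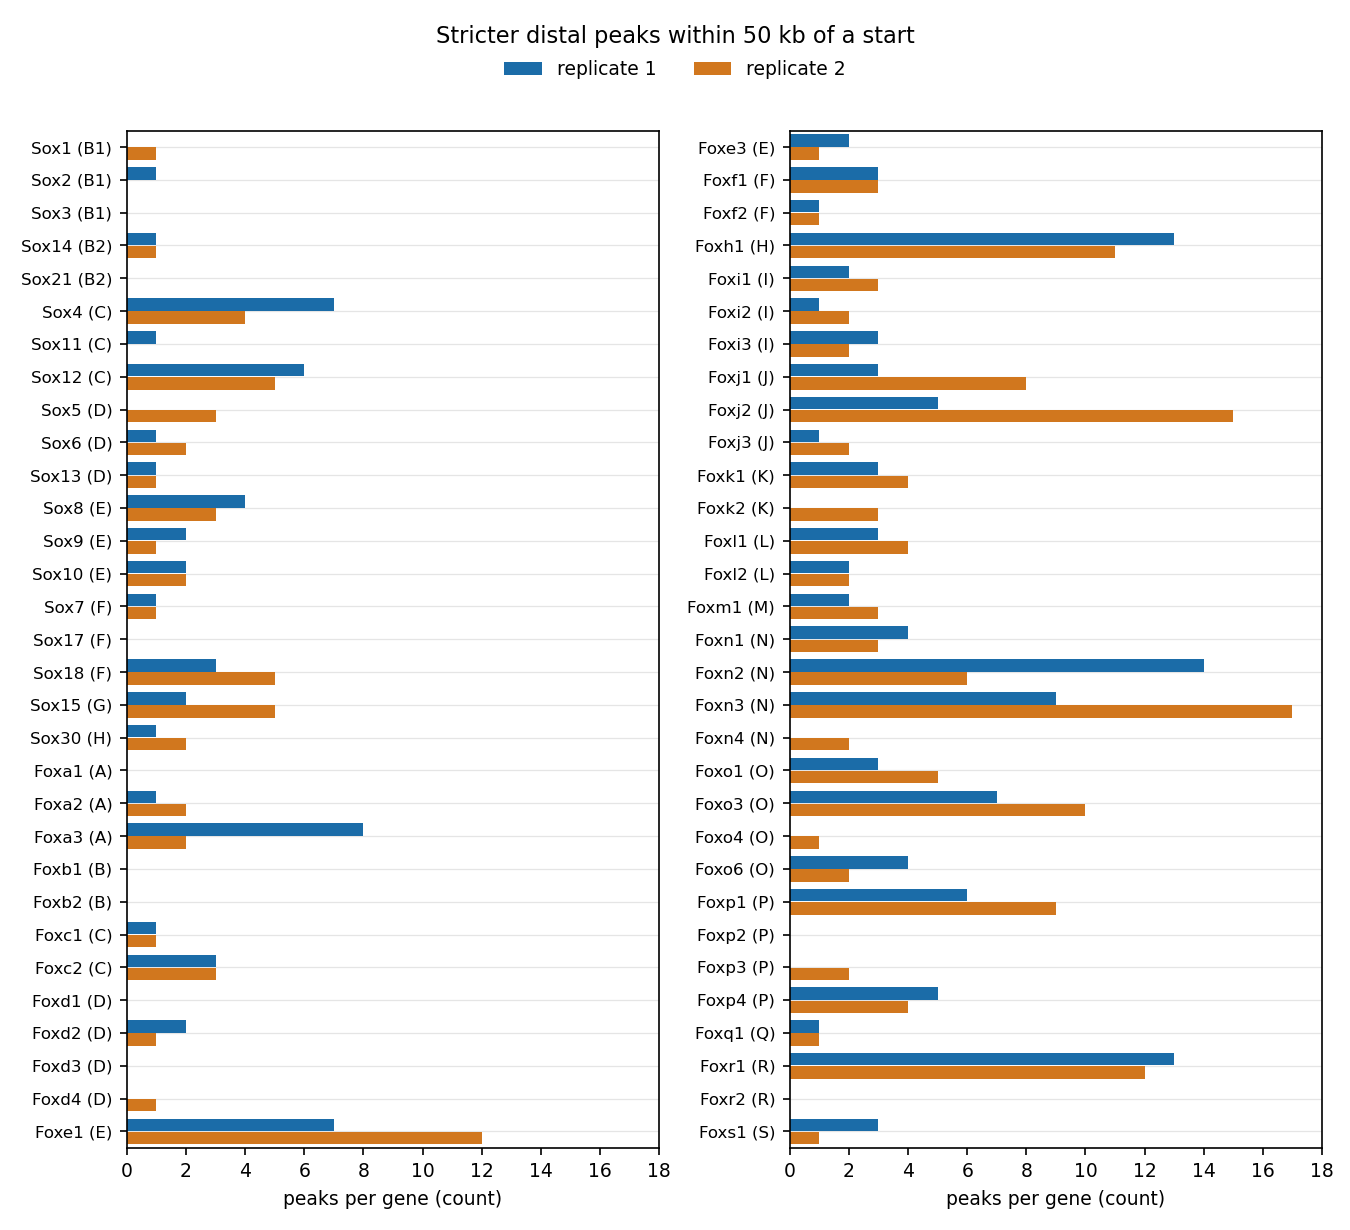
Number of stricter distal peaks within 50 kb of a start (horizontal axis) for 62 of the 63 genes, with 1 bar per library and the subgroup in parentheses. Foxn3, Foxn2, Foxj2, Foxr1 and Foxh1 have the longest bars, and Foxj2, Foxn2 and Foxn3 differ most between the libraries.

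Foxn3 had 9 and 17 distal peaks, all of them inside the gene. Foxr1 had 13 and 12 and Foxh1 13 and 11, yet neither gene had the nearest coding start for any of them. Both thus lie among distal peaks that are nearer to other genes, and both lacked a stricter start peak. Foxj2 had 5 and 15, Foxn2 14 and 6, Foxe1 7 and 12, Foxo3 7 and 10, and Foxp1 6 and 9. The windows of all starts of a gene were joined, so the length searched differed between genes. Foxn3 has 14 annotated starts in a gene of 373.5 kb, and Foxp1 22 in 597.4 kb, while Foxe1 has 1. The counts of Foxj2, Foxn2 and Foxn3 differed most between the libraries among all members, and of the Foxn2 peaks 3 overlapped between libraries. Of the distal peaks near members, 68.8% of those in replicate 1 and 53.2% of those in replicate 2 overlapped a distal peak of the other library, against 72.5% and 58.2% of all distal peaks.

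A distal peak 34056 bp upstream of Foxk1 had a signal of 14.80 and 8.03. In replicate 1 it was the strongest distal peak near a member, and in replicate 2 the Foxo3 peak described above was higher, at 9.03. The Foxk1 distal peak was above the start peak of Foxk1 in both libraries. It held a match to the NRF1 motif, searched on both strands without mismatch, within a shared footprint. Of windows of the same length over distal peaks of replicate 1, 0.127% held one. Over peaks of replicate 1 centred within 1 kb of a start, 1.18% of windows of 220 bp and 1.27% of windows of 300 bp did. The Foxk1 stretch held 30 CpG in its 280 bp. NRF1 belonged to a panel of motifs searched in each printed peak, so this match was picked from many looks. A peak of 7.67 and 4.29 lay 2660 bp upstream of Foxc2 in replicate 1 and counts also for its neighbours Foxf1 and Foxl1, all of them without a stricter start peak. That peak and the one upstream of Sox4 hold a match to a core of the CTCF motif inside a shared footprint, and 21.6% and 21.1% of distal windows of their lengths hold one.

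The distal peak 4268 bp upstream of Sox4 had 6.60 and 3.74, above the start peak of Sox4 in both libraries. Sox12 had a distal peak of 6.82 and 5.57, 8218 and 8198 bp upstream, likewise above its start peak. A peak 19270 and 19260 bp upstream of Foxn2 had 4.44 and 6.80, and so was higher in replicate 2. Among the genes of Sox C the strongest distal peak was thus above the start peak for Sox4 and Sox12 in both libraries, while Sox11 had 1 distal peak in replicate 1 and none in replicate 2.

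Footprints within 1 kb of a start numbered 364 in replicate 1 and 319 in replicate 2 over all members. At least 1 was found at 36 and 34 members, where 61.7% and 59.5% of coding genes had one. The median was 2 and 1 per member against 5 and 5 per coding gene. Among genes with a start peak it was 9 and 8 against 11 and 10. Of the members' footprints 182 of 364 and 192 of 319 overlapped one of the other library, against 51.0% and 50.6% of all footprints, and 125 and 94 lay outside the stricter peaks.

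**Figure D5:**
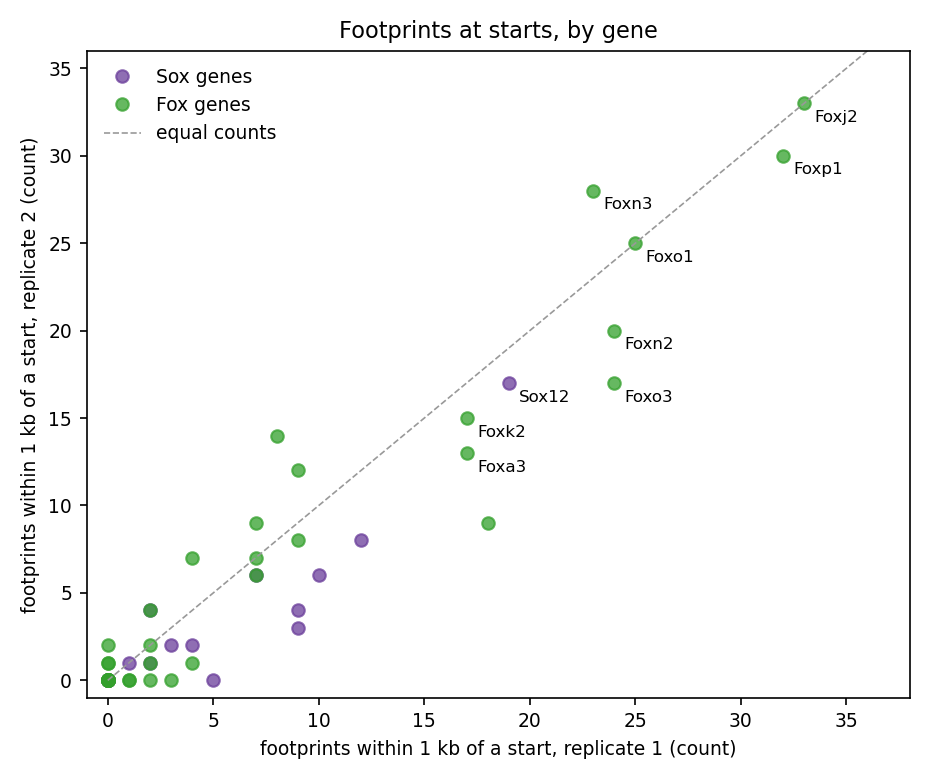
Footprints within 1 kb of a start in replicate 1 (horizontal axis) and replicate 2 (vertical axis), with 1 point per gene for 62 of the 63 genes, Sox genes purple and Fox genes green; some points coincide. Foxj2 and Foxp1 have the most in both libraries, and the dashed line marks equal counts.

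Foxj2 had 33 footprints at its starts in each library, and Foxp1 32 and 30. Foxo1 had 25 in each library, Foxn3 23 and 28, Foxo3 24 and 17, and Foxn2 24 and 20. The order by footprints was not the order by start signal. Foxj2 and Foxo1 had start signals below the median of coding genes with a start peak in both libraries. These measures are unlike, since the start signal is that of 1 peak and footprints were counted over the whole window. Foxj2 had 4 and 8 peaks in its start windows, and Foxo1 had 4 in each library. With all peaks in the window summed, the mean signal rose from 1.75 to 6.03 for Foxj2 and from 1.99 to 5.08 for Foxo1. Of the Sox genes Sox12 had the most, with 19 and 17. Foxp1 has 22 annotated starts, and Foxo1 has 1, so the number of windows differed between genes.

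SOX proteins are known to bind ACAATG and related letters, and forkhead proteins TGTTTAC. Footprints within 50 kb of the members, extended by 5 bp on each side, were searched for both on both strands. The SOX letters were in 5 of 1848 footprints in replicate 1, or 0.271% (95% exact interval 0.0879 to 0.630), and in 10 of 1809 in replicate 2, or 0.553% (0.265 to 1.01). Of all footprints 0.527% and 0.585% held them. The forkhead letters were in 3 and 1 of them, or 0.162% (0.0335 to 0.474) and 0.0553% (0.00140 to 0.308), against 0.0599% and 0.0764%. All of these intervals hold the share over all footprints and cover counting error only.

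A footprint with the SOX letters in both libraries was found near Foxo3, Foxh1 and Foxs1. At Foxo3 it lay in the start peak printed above. Of windows of 300 bp over peaks of replicate 1 centred within 1 kb of a start, 6.70% hold the letters. The Foxo3 peak is centred 1026 bp from its start and so lies outside that set. Of windows of 280 bp over distal peaks of replicate 1, 11.5% hold them. At Foxs1 it lay 18562 bp downstream and held a match to the CTCF core as well, as 6.04% of all SOX footprints in replicate 1 and 5.01% in replicate 2 did, against 3.24% and 2.90% of all footprints. Both are printed from GRCm38 with 5 bp on each side, with the SOX letters in capitals, since footprints of both libraries cover these letters (chr10:42277747-42277776, minus strand, and chr2:152914618-152914673, minus strand). All motif matches were read from the B6 reference, and the CAST allele was not checked. The Foxh1 footprint overlaps an annotated exon and is not printed.
Foxo3 footprint: gtgtagagACAATGacatcatctgtttgta
Foxs1 footprint: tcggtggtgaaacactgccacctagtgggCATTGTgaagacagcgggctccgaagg
In the Foxs1 stretch the letters read CATTGT on the printed strand, the reverse complement of the SOX letters. A match is a description of the letters under a footprint and does not show which protein was bound.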

How the data were processed

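DNase-seq libraries of mouse cerebellum, 1 per replicate, were used. Per the labels the assembly was mm10. For aligner, peak caller, footprint caller, versions and read numbers: not given in the sources used here. Peak lists carry a signal deposited by the authors, whose scale is not stated. Values under 100 steps lay within 0.05 of whole multiples of 0.00714 and 0.00632, in 100% of cases. The authors' table of FDR (q-value, a p-value unit) lists intervals under 0.05, and footprints carry 0.01 throughout. Every stricter peak held a base with FDR under 0.001, against 64.1% and 63.9% of longer-list peaks.

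From these files start peaks, distal peaks and footprints were counted per gene in Python 3.11.15 with numpy 2.4.6, pandas 2.3.3, scipy 1.17.1 and matplotlib 3.10.9. The finding of start peaks and the calling and counting of distal peaks were checked on simulated peaks. Motif, CpG and FDR values and the step of the signal were not checked in this way. Peaks counted as shared with any overlap. A share has an exact binomial interval at 95%. Alternatives were other windows, distances, peak lists and single libraries. Genes were named by a rule: every member once, with values for the 2 highest members of each subgroup by start signal, the 8 with most distal peaks, those with a start peak in 1 library alone, and all with one in both libraries in groups of 4 or fewer; of other lists, the 3 highest and up to 2 closed. Cell type lists are given as counts. The rule for members reads symbols alone, but the rule and the lists were chosen with earlier results of these data known. The values of 1 member and of genes in other lists that the rule would name are not reported here.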

Additional observations from a re-analysis of the deposited data

How the results depend on the processing

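The count of 24 members with a start peak in both libraries lay between 20 and 33 under every alternative tried: 33 with the longer list, 24 with a window of 500 bp, 27 with 2 kb, 22 with the 5′-most start alone, 22 with the strongest 50000 peaks, and 20 without the members whose strongest peak lies nearer to another coding gene (chosen after seeing the data). Without replicate 1 it was 27 and without replicate 2 it was 26. Of the Sox genes 7 became 12 (63.2%, against 60.5% of coding genes) with the longer list, so that their share was no longer below that of all coding genes. Of the Fox genes 17 became 21 (47.7%), which was still below it. With that list 29 of 48 CpG-rich members had a start peak in both libraries, against 93.1% of CpG-rich coding genes. The median start signal of members with a peak, 2.60 as a mean of the libraries, was 1.22 with the longer list, which adds weaker peaks, and 3.63 with all peaks in the window summed. Leaving out a library gave 1.95 to 3.24. The mean of 2.90 distal peaks was 1.42 within 25 kb, 5.68 within 100 kb and 5.29 with the longer list, against 1.78, 5.68 and 5.34 for coding genes. Leaving out a library gave 2.67 to 3.13. Footprints at starts, 5.42 per member, were 3.76 within 500 bp and 3.68 inside stricter peaks alone, and 5.06 to 5.78 with a library left out. With no flank the share of footprints with the SOX letters fell from 0.412% to 0.165% and with the forkhead letters from 0.109% to 0; with a library left out these ranged from 0.271% to 0.553% and from 0.0553% to 0.162%. Start signals of 14 of 29 named genes moved beyond the spread between libraries with all peaks in the window summed. That spread includes the offset in signal between the libraries. The alternatives for CpG content, FDR, FoxO pathway and HMG-box counts were also chosen after seeing the data, and each count stayed within 1.5 times its value. No paired analysis was possible because the 2 libraries form 1 group. If each step is taken as 1 counted cut, weak start peaks of 48 to 110 steps would carry a counting error of 14.4% to 9.53%. On that reading calls in 1 library alone are limited. The scale of the signal is not stated, so the reading of steps as cuts is an assumption and was not tested.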
